A study of Mus musculus with 6 samples.

Results

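Tfap2a, Tfap2b, Tfap2c, Tfap2e and Pitx1 encode DNA-binding transcription factors used in building the face. They were followed in bulk RNA-seq of the mouse secondary palate at embryonic day 14.0, the stage around which the palatal shelves lift above the tongue. The 5 genes were taken by symbol and matched to their Ensembl identifiers among the 56691 genes counted, 52073 of which could be given a symbol. The animals were C57BL/6J mice with no allele or agent, and each library came from microdissected palatal shelf, either the anterior 1/3 (anterior palate, 3 libraries) or the posterior 1/3 (posterior palate, 3 libraries). The question put to these libraries was which genes differ along the front-to-back axis of the palate. The study calls the samples biologically independent, but the labels tie no library to an embryo or litter, so the p-values measure the spread between these libraries, part of which may be technical.

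AP-2 proteins bind a GC-rich palindrome as dimers and can pair with one another. TFAP2A, TFAP2B and TFAP2C are expressed in surface ectoderm and neural crest, and TFAP2A mutations cause branchio-oculo-facial syndrome, in which the lip or palate can be cleft. PITX proteins are bicoid-related homeodomain factors. PITX1 marks oral ectoderm and the mesenchyme of the developing jaw, and mice that lack it have a shortened mandible and a cleft palate.

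Of the 5 members, 1 passed the test between regions: Tfap2a was 2.34-fold higher in the anterior palate. Pitx1 and Tfap2c were also higher in every anterior library than in any posterior library, by 1.80-fold and 3.34-fold, without passing the test, and the Tfap2c difference was carried largely by anterior replicate 3. Tfap2b was high in anterior replicate 3 and low in most other libraries, and its regions overlapped. Tfap2e was at or near 0 throughout. Outside the members, the paralog Pitx3 was at or near 0 in the anterior palate and present in every posterior library.

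The members' counts were read against all 15673 genes tested. The test is edgeR's quasi-likelihood test at an adjusted p under 0.05, which 7.46% of genes passed, 2.59% toward the anterior and 4.87% toward the posterior palate. Log2 fold changes are given as posterior over anterior throughout, so a value below 0 means a higher level in the anterior palate. All 4 members tested had values below 0, as did 50.4% of all genes, and all 4 had an unadjusted p under 0.05, as did 25.2%. Every anterior library lay above every posterior library in 3 of the 4 members and in 13.4% of all genes, while 14.7% of genes had the reverse order. The number of members called depended on the procedure: DESeq2 called all 4, with 12.6% of genes called, and edgeR without the filter on low counts also called all 4, with 7.14% called. With a term for posterior replicates 2 and 3, which leaves posterior replicate 1 as the only library behind the posterior level, Tfap2a alone was under the threshold, with 7.61% of genes called. Leaving out posterior replicate 1 called Tfap2a, Tfap2c and Pitx1, but 46.4% of all genes were then called, so those calls say little about the members.

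All 5 members are annotated as protein-coding. In the GENCODE M21 annotation of GRCm38, Tfap2a (ENSMUSG00000021359) lies at chr13:40715302-40738376 on the minus strand and Pitx1 (ENSMUSG00000021506) on the same strand of the same chromosome at chr13:55825051-55836192. Tfap2b (ENSMUSG00000025927) lies at chr1:19208914-19238576 on the plus strand. Its relative Tfap2d ends 42.6 kb upstream. Tfap2c (ENSMUSG00000028640) lies at chr2:172549593-172558622 on the plus strand and Tfap2e (ENSMUSG00000042477) at chr4:126716006-126736240 on the minus strand.

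RefSeq promoter windows (GRCm38.p6, from 250 bases before to 50 bases after an annotated start) are shown for the member that passed the test, Tfap2a, and for the member that varied most between libraries, Tfap2b. The Tfap2a window is chr13:40734871-40735170 on the minus strand, from 1 of its 2 annotated starts, and the Tfap2b window is chr1:19211804-19212103 on the plus strand. Capitals mark the homeodomain core TAATTA, the only match among the 3 motifs searched on both strands. The window of the other Tfap2a start, chr13:40733746-40734045 on the minus strand, is not shown and holds none of the 3 motifs.
Tfap2a: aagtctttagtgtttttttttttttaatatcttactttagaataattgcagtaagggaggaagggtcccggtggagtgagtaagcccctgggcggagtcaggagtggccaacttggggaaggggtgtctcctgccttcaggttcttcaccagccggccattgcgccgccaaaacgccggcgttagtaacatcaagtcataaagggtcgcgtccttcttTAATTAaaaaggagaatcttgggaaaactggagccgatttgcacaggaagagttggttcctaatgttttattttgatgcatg
Tfap2b: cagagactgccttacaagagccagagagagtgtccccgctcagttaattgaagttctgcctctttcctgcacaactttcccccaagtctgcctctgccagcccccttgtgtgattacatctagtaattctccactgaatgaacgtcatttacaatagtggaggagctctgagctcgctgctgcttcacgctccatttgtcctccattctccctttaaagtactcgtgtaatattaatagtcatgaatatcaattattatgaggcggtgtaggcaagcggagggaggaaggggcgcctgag
The TAATTA match in the Tfap2a window begins 32 bases before the start. The same letters occur in 5.29% of all 32841 RefSeq windows of this length. Neither window holds the AP-2 palindrome GCCNNNGGC, found in 16.6% of windows, or the PITX core TAATCC, found in 7.06%. The window of Pitx3 (chr19:46148276-46148575, minus strand) holds 1 AP-2 palindrome, 134 bases before the start. These matches are descriptions of sequence and were not tied to any measurement. Tfap2c and Pitx1 had no entry in the promoter table.

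The libraries held 11378736 to 15172733 counts assigned to genes on the sequenced strand. At these depths 3 counts, the most a count of 0 allows at 95% confidence, amounted to 0.206 to 0.260 CPM (counts scaled to a common library size with TMM factors), for counting error alone. Posterior replicates 2 and 3 stood apart from the other 4 libraries. Mitochondrial genes took 0.973% and 1.14% of their counts against 2.70% to 2.97% elsewhere, and 6.12% and 5.94% of their reads mapped to several places against 8.45% to 8.77%. Posterior replicate 2 also held neuronal markers (Tubb3, Stmn2, Elavl3 and Elavl4) at a summed 228 CPM, against 15.9 to 39.3 CPM in the others. The tissue label was checked on palatal mesenchyme markers, which summed to between 1172 and 1574 CPM in every library, and on epithelial markers, which summed to between 1175 and 1967 CPM. Each library therefore held mesenchyme and epithelium, and in bulk tissue fewer cells of a type and less RNA per cell cannot be told apart.

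Tfap2a, the AP-2 member most tied to facial clefting, had normalized levels of 26.6, 23.1 and 27.7 CPM in anterior replicates 1 to 3 and 16.6, 8.38 and 8.16 CPM in posterior replicates 1 to 3. Every anterior library lay above every posterior library, and posterior replicate 1 lay between the anterior libraries and the other posterior libraries. The means were 25.8 ± 2.38 CPM (SD, n = 3) and 11.1 ± 4.82 CPM (SD, n = 3). The log2 fold change of posterior over anterior was -1.22 (SE 0.28, 95% interval -1.87 to -0.58), with an adjusted p of 0.0401 in edgeR's quasi-likelihood test across all genes tested. The anterior level lay between 1.49 and 3.65 times the posterior level by this interval. The exact two-sided permutation test over the 6 libraries gave p = 0.1, the smallest it can give with 3 against 3.

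The Tfap2a call was sensitive to the libraries used. It was kept without posterior replicate 1, at a log2 fold change of -1.63 (adjusted p = 5.95e-05, with 46.4% of all genes called), and lost when any of the other 5 libraries was left out, with adjusted p between 0.110 and 0.144. With a term for posterior replicates 2 and 3, the region contrast sets posterior replicate 1 alone against the anterior libraries and assumes that it varies like the others. The change was then -0.63 (adjusted p = 0.0485), a value from a single posterior library and not support for the regional call.

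**Figure D1:**
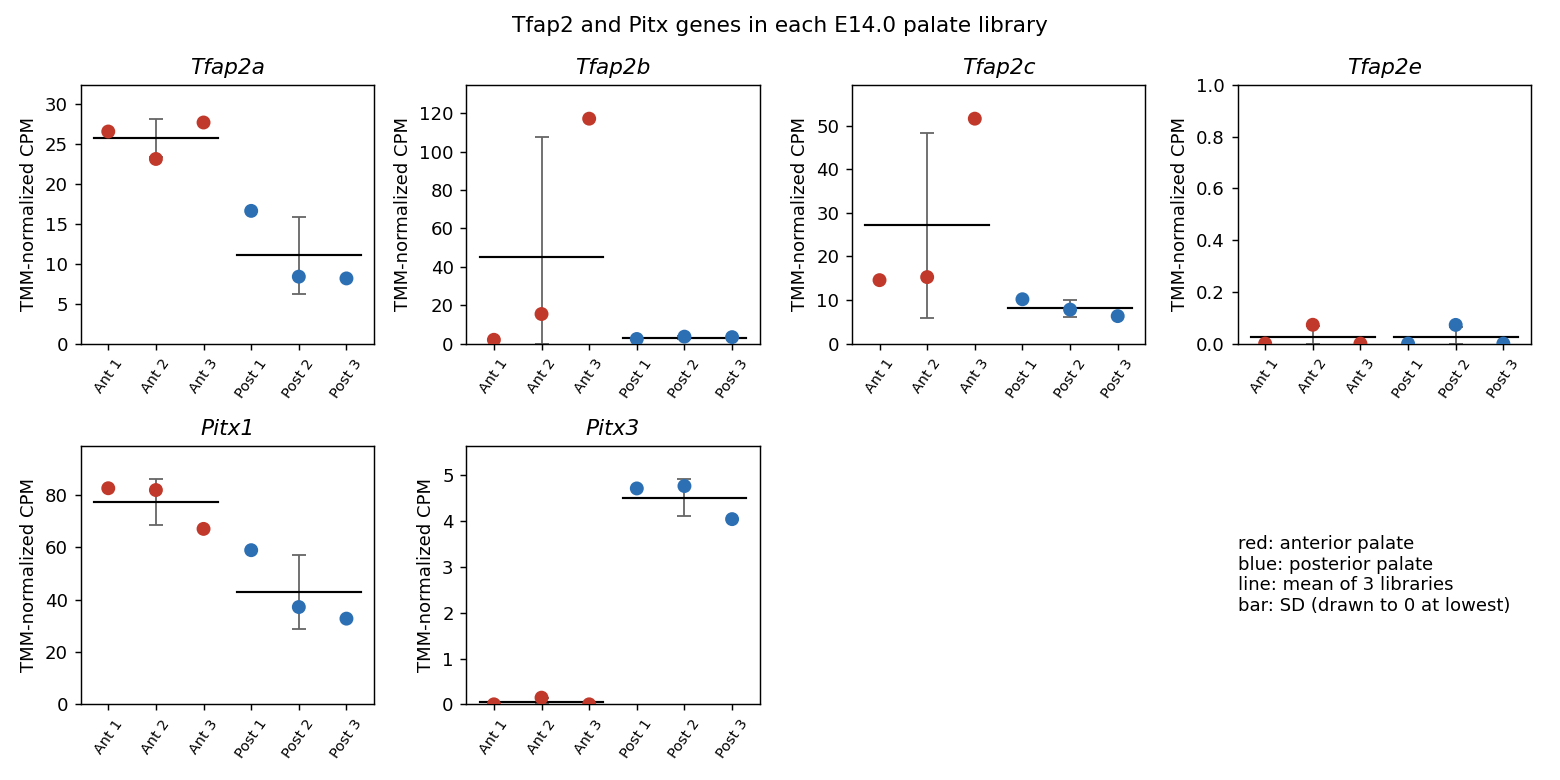
Normalized CPM (vertical axes, linear, each from 0) of the 4 Tfap2 members, Pitx1 and its paralog Pitx3 in each library (horizontal axes); points are libraries (red, anterior; blue, posterior), lines are means of 3 libraries and bars are SD. Tfap2a, Tfap2c and Pitx1 have every red point above every blue one, Pitx3 the reverse, and Tfap2b has a single high point at 117 CPM in anterior replicate 3.

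Tfap2b marks neural crest derivatives, its human counterpart is mutated in Char syndrome, and the study used Tfap2b as a marker of dental mesenchymal cells. Tfap2b had 1.97, 15.4 and 117 CPM in the anterior libraries and 2.40, 3.61 and 3.36 CPM in the posterior libraries. The raw counts behind these values were 26, 212 and 1355, and 32, 50 and 49. Anterior replicate 1 was the lowest of all 6 libraries and anterior replicate 3 the highest, so the regions overlapped. The mean of 44.9 ± 63.0 CPM (SD, n = 3) in the anterior palate had an SD larger than itself, while the posterior mean was 3.12 ± 0.642 CPM (SD, n = 3). The log2 fold change of -3.83 (SE 1.25, 95% interval -6.75 to -0.91) had an adjusted p of 0.117 in edgeR. The exact permutation test gave p = 0.4. Without anterior replicate 3 the change was -1.48 (adjusted p = 0.344), and without anterior replicate 1 it was -4.40 and passed the threshold (adjusted p = 0.0404).

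Within the anterior palate the highest Tfap2b level was 59.4 times the lowest. Among the 14841 genes with a mean of at least 1 CPM, 6 had a larger SD of log2 CPM across the anterior libraries than Tfap2b, at 2.79. The median over these genes was 0.103. The posterior libraries were closer together, with an SD of 0.27 for Tfap2b against a median of 0.22.

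Tfap2c, an AP-2 member of ectoderm and its derivatives, had 14.6, 15.3 and 51.7 CPM in the anterior libraries and 10.2, 7.80 and 6.31 CPM in the posterior libraries. No anterior library fell to the level of a posterior one, and anterior replicate 3 again stood above the rest, at 3.38 times the next library. The means were 27.2 ± 21.2 CPM (SD, n = 3) and 8.10 ± 1.95 CPM (SD, n = 3). The log2 fold change was -1.74 (SE 0.51, 95% interval -2.93 to -0.55), with an adjusted p of 0.0901 in edgeR, so Tfap2c did not pass. Without anterior replicate 3 the change was -0.89 (adjusted p = 0.105), and without posterior replicate 1 it was -1.93 (adjusted p = 0.0267), one of the many calls made without that library. The anterior SD of log2 CPM was 1.02, exceeded by 45 of the 14841 genes.

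Tfap2e, whose known sites of expression include the olfactory bulb and vomeronasal neurons, had a single count in anterior replicate 2 and in posterior replicate 2 and none in the other libraries. Both regions were under the limit of 3 counts per library, so no fold change was formed and the gene did not enter the test. Tfap2d, the remaining AP-2 gene and the neighbour of Tfap2b, had 0 counts in all 6 libraries, each of which allows up to 3 counts. Olfactory and vomeronasal markers summed to between 3.34 and 6.14 CPM, most of it Gng8 at 3.04 to 5.14 CPM. Of their defining genes Trpc2 was at 0 in all 6 libraries, and Omp was at 1.38 CPM in anterior replicate 3 and at most 0.152 CPM elsewhere.

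Compared per kb of M21 exon sequence, which may differ from the gene models counted, the AP-2 genes took different shares in different libraries. Tfap2a made up 55.9%, 41.6% and 14.8% of the summed AP-2 level in the anterior libraries and 51.9%, 38.5% and 42.6% in the posterior libraries. Tfap2c stayed between 36.6% and 47.8% in all 6 libraries. Tfap2b ranged from 3.21% in anterior replicate 1 to 48.4% in anterior replicate 3, and from 5.78% to 13.6% in the posterior palate. The summed level was 38.2 CPM per kb in anterior replicate 3, where Tfap2a, at 5.65 CPM per kb, was close to its 5.42 and 4.72 CPM per kb in anterior replicates 1 and 2. Thus the excess in that library was in Tfap2b and Tfap2c and not in Tfap2a.

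**Figure D2:**
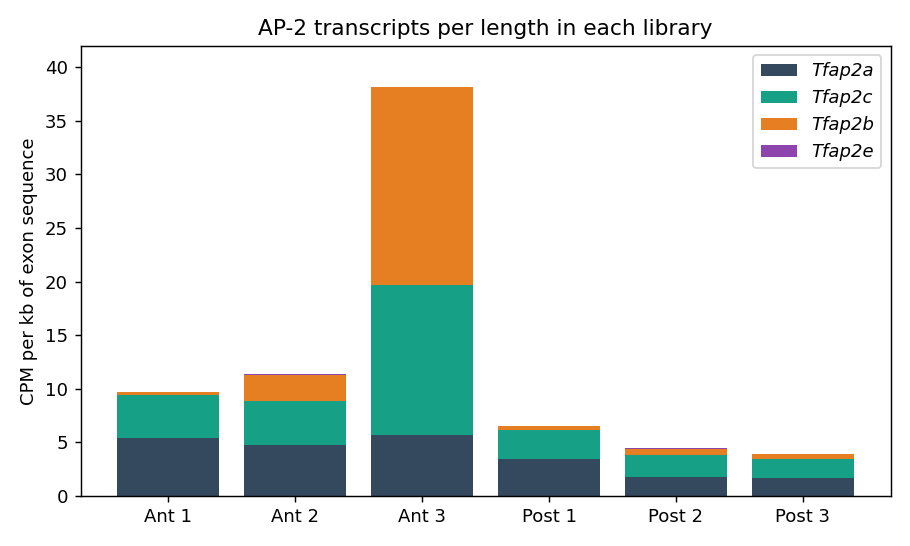
Stacked bars of the 4 AP-2 members in CPM per kb of exon sequence (vertical axis, linear from 0) in each library (horizontal axis). Anterior replicate 3 reaches 38.2 CPM per kb through Tfap2b and Tfap2c, while the Tfap2a segment differs little among the anterior libraries.

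The genes whose levels followed each AP-2 member most closely were found by the smallest root mean square difference of log2(CPM + 0.5), each gene centred on its own mean, over the 6 libraries and among 14840 other genes. For Tfap2a these were Actg2 (0.12), a smooth muscle actin, Tbx3os1 (0.14), a transcript antisense to Tbx3, and Krtdap (0.15), a keratinocyte gene. For Tfap2b they were Egr3 (0.71), Cyp26c1 (0.81) and Sp6 (0.86), at distances several times larger. Egr3, an immediate early zinc finger gene, was at 1.59, 2.47 and 80.8 CPM in the anterior libraries and at 0.823, 2.38 and 1.58 CPM in the posterior libraries. For Tfap2c the nearest were Etv4 (0.32), a transcription factor induced by FGF signalling, Car2 (0.33), a carbonic anhydrase, and Mpped1 (0.33). Etv4 was at 12.5, 15.8 and 51.5 CPM and at 5.31, 7.80 and 4.59 CPM. All of these likenesses are descriptions over 6 libraries that share depth and dissection.

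Tooth-forming tissue borders the palatal shelf, and its markers were read in the same libraries. In anterior replicate 3 the dental mesenchyme gene Fgf3, a growth factor of tooth germs, had 265 counts, against 4 to 9 counts in the other 5 libraries, which kept it out of the test. Sp6, a dental epithelium factor, was at 23.4 CPM there and at 1.17 to 3.20 CPM elsewhere. Dlx2, a homeobox gene of facial and dental mesenchyme, was at 52.1 CPM there and at 9.86 to 19.9 CPM elsewhere. The study marked its dental mesenchymal cells by Dlx2, Sostdc1 and Tfap2b itself, so Tfap2b is not independent of these markers. Sostdc1 was at 145 CPM in anterior replicate 3 and at 61.5 to 107 CPM elsewhere. Lef1, a WNT effector used in tooth buds and taken from the list of genes tied to PITX1, was at 28.0 CPM in anterior replicate 3 and at 5.54 to 12.2 CPM elsewhere. Summed over the lists, the 9 dental mesenchyme markers were at 556, 668 and 1003 CPM in the anterior libraries and at 614, 435 and 530 CPM in the posterior libraries. Of these sums Msx1, which the study also names as an anterior palatal marker, made up 146, 184 and 282 CPM in the anterior libraries. It made up at most 1.37 CPM in the posterior libraries. The 6 dental epithelium and enamel markers summed to 43.9, 59.0 and 74.2 CPM and to 13.4, 13.4 and 19.1 CPM, and Amelx, which defines mature enamel epithelium, was at 0 in all 6 libraries. Anterior replicate 3 was highest in both sums, as it was for Tfap2b and Tfap2c, but not in every marker. Ambn was lower there, at 13.3 CPM, than in anterior replicates 1 and 2, and Lhx6, at 98.5 CPM, was below the 102 CPM of anterior replicate 2. Dlx1 was higher in every posterior library, at 50.9 to 62.3 CPM, than in any anterior library, at 20.3 to 45.4 CPM, without passing the test (log2 fold change 0.76, adjusted p = 0.136, edgeR). Bmp4, Pax9 and Edar were each higher in at least 1 posterior library than in anterior replicate 3. The part of these tissues in the members' levels was not tested.

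By the test, 2 of the 4 dental epithelium and enamel markers tested were called, and both rose toward the anterior palate; the median log2 fold change was -1.92, against -0.0040 over all genes tested. Shh, the signal of dental placodes and palatal ridges, was at 21.5, 30.5 and 35.1 CPM in the anterior and at 11.1, 9.46 and 15.4 CPM in the posterior libraries (log2 fold change -1.27, SE 0.24, adjusted p = 0.0196, edgeR). Ambn, an enamel matrix gene, was at 13.3 to 23.8 CPM in the anterior palate and at most 0.686 CPM in the posterior palate. It reached the filter on low counts only through the anterior libraries, where it is high, so its call and its part in the list's median add little to these levels, and the list held 1 call when 10 counts were required in every library. Of the 8 dental mesenchyme markers tested, 3 were called, all toward the anterior palate, and the median was -0.27. Of all genes tested, 2.59% were called toward the anterior palate, but both tooth lists were chosen with earlier results of these data known. Msx1, a homeobox gene needed for tooth and palate, was at 146 to 282 CPM against 1.03 to 1.37 CPM, a log2 fold change of -7.46. The LIM homeobox genes Lhx6 and Lhx8 had log2 fold changes of -0.72 and -1.01 (adjusted p = 0.0191 and 0.0171, edgeR). The study names Msx1 as a marker of anterior palatal mesenchyme and Lhx8 as a putative regulator of cranial neural crest-derived mesenchyme. Neither gene therefore marks tooth tissue alone. Leaving out 1 library left as few as 1 call on each of these lists.

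**Figure D3:**
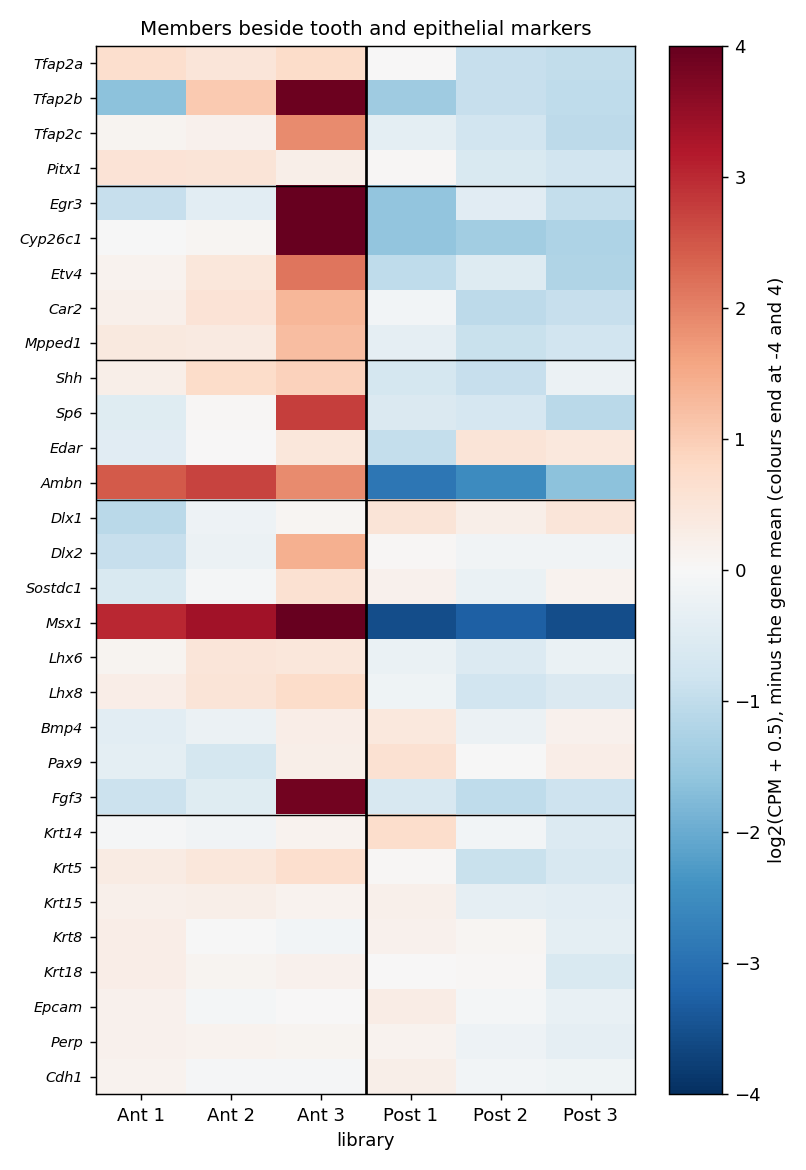
Colour shows log2(CPM + 0.5) minus each gene's mean over the 6 libraries (red, above; blue, below; colours end at -4 and 4), with libraries as columns and, from top to bottom, the tested members, genes with profiles near Tfap2b and Tfap2c, dental epithelium and enamel markers, dental mesenchyme markers, and epithelial markers as rows. In the anterior replicate 3 column, Tfap2b, Tfap2c, Egr3, Cyp26c1, Etv4, Sp6, Dlx2 and Fgf3 are red, while the epithelial markers are close to their means.

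Of the 8 general epithelial markers, keratin and junction genes, none was called in edgeR, at a median log2 fold change of -0.17, although Krt5, a basal keratin, had an unadjusted p of 0.00532 (log2 fold change -0.93, adjusted p = 0.0616). The 2 most abundant by CPM were Krt15, a basal keratin at 403 to 430 CPM in the anterior and 276 to 422 CPM in the posterior libraries, and Krt14, another basal keratin at 321 to 385 CPM and 243 to 572 CPM. Their sum was 1785, 1716 and 1810 CPM in the anterior libraries and 1967, 1341 and 1175 CPM in the posterior libraries, so posterior replicates 2 and 3 held the least. Set against this sum, Tfap2a was 1.49%, 1.35% and 1.53% of it in the anterior and 0.845%, 0.625% and 0.695% in the posterior libraries, with no overlap and a log2 ratio of the means of -1.01. The same ratio was -1.48 for Tfap2c and -0.62 for Pitx1, again with no overlap, and -3.47 with overlap for Tfap2b. Set against the palatal mesenchyme markers the ratios were -0.97 for Tfap2a, -1.50 for Tfap2c, -0.60 for Pitx1 and -3.65 for Tfap2b, and the Pitx1 values then overlapped between regions. The mesenchyme sum is not a steady reference. Within it Prrx1 was called toward the anterior palate, and Twist1 and Pdgfra were called toward the posterior palate. Pdgfra was at 382, 681 and 779 CPM in posterior replicates 1 to 3.

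Regulators of oral epithelium that are studied beside Tfap2a in clefting were called in 1 of 5 cases, with a median of -0.18. Trp63, the master regulator of stratified epithelium, was at 68.4, 65.6 and 72.8 CPM against 41.3, 42.3 and 48.5 CPM (log2 fold change -0.65, SE 0.10, adjusted p = 0.00948, edgeR). The regions did not overlap, and the anterior palate was higher, but the call was lost without anterior replicate 1, anterior replicate 3 or posterior replicate 2. Grhl2, Grhl3, Esrp1 and Ovol1 were not called.

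Cofactors and inhibitors of AP-2 proteins were measured in all 9 cases on the list, and 1 was called. Cited2, a coactivator that bridges AP-2 proteins to the acetyltransferases CBP and p300, was at 60.0, 69.7 and 77.5 CPM in the anterior and at 35.4, 43.1 and 30.8 CPM in the posterior libraries. No posterior library reached an anterior one (log2 fold change -0.92, SE 0.15, adjusted p = 0.0121, edgeR). The call was lost without anterior replicate 2 or anterior replicate 3. The inhibitors Kctd1 and Kctd15 had log2 fold changes of -0.30 and -0.40 and were not called, and the list's median was -0.30. Cited1, another coactivator of the same family, was at 13.0 CPM in anterior replicate 3 and at 2.66 to 6.07 CPM elsewhere. It was not called.

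Pitx1 had a higher level per kb than any Tfap2 gene or Pitx3 in the mean of each region. It was at 82.5, 81.8 and 67.0 CPM in the anterior libraries and at 58.8, 37.1 and 32.7 CPM in the posterior libraries. Each anterior library lay above each posterior library, and posterior replicate 1 was again the highest of its region. The means were 77.1 ± 8.77 CPM (SD, n = 3) and 42.9 ± 14.0 CPM (SD, n = 3). The log2 fold change was -0.85 (SE 0.22, 95% interval -1.36 to -0.33), with an adjusted p of 0.0628 in edgeR, and the exact permutation test gave p = 0.1. The anterior level was between 1.26 and 2.57 times the posterior level by this interval. Without posterior replicate 1 the change was -1.14 (adjusted p = 0.000166), again among the many calls made without that library, while with the term for posterior replicates 2 and 3, when posterior replicate 1 alone stands for its region, it was -0.39 (adjusted p = 0.150). Anterior replicate 3, the highest library for Tfap2b and Tfap2c, was the lowest anterior library for Pitx1.

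The profiles nearest to Pitx1 were those of an Ensembl gene without a symbol here (0.09), of Dpysl2 (0.09), a cytoskeletal regulator in growing neurites, and of Gstm7 (0.10), a glutathione transferase. Dpysl2 was at 157, 170 and 147 CPM in the anterior and at 130, 73.0 and 62.2 CPM in the posterior libraries. These genes share with Pitx1 the step between posterior replicate 1 and the other posterior libraries.

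Among genes tied to PITX1 in limb, pituitary and oral tissue, 1 of 5 tested was called. Barx1, a homeobox gene of the proximal jaw and molar mesenchyme, was at 45.5, 64.9 and 139 CPM in the anterior and at 384, 240 and 268 CPM in the posterior libraries (log2 fold change 1.84, SE 0.40, adjusted p = 0.0348, edgeR). The regions did not overlap, but Barx1 was no longer called without anterior replicate 1, anterior replicate 2, posterior replicate 2 or posterior replicate 3. Tbx4, which acts with Pitx1 in the hindlimb, was at 1.06 to 2.47 CPM and was not called. Pomc, a pituitary hormone precursor and known PITX1 target, was at 0.823 to 1.23 CPM with a log2 fold change of 0.06. Tbx19 had at most 1 count per library. The pituitary markers Lhx3, Cga and Pou1f1 summed to at most 0.150 CPM, and Lhx3 was at 0 in all 6 libraries.

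Pitx3, known for its roles in the lens, in midbrain dopaminergic neurons and in skeletal muscle, was higher in the posterior palate. It had 0, 2 and 0 counts in the anterior libraries and 63, 66 and 59 counts in the posterior libraries, or 4.51 ± 0.403 CPM (SD, n = 3). Set against the anterior limit of 3 counts per library, the posterior level was at least 19.2-fold higher. It entered the test only through the posterior libraries, where it is high, so its adjusted p of 0.00112 in edgeR adds little to these counts. Skeletal muscle markers moved with it. Their sum over 6 genes was 4.02 to 6.92 CPM in the anterior and 474 to 842 CPM in the posterior libraries. All 6 were called toward the posterior palate, but most of them, like Pitx3, reached the filter on low counts only through the posterior libraries, and 2 were called when 10 counts were required in every library. Myod1, a muscle-determining factor, was at most 0.145 CPM in the anterior and between 19.2 and 22.2 CPM in the posterior libraries. The part of muscle tissue in the Pitx3 difference was not tested.

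**Figure D4:**
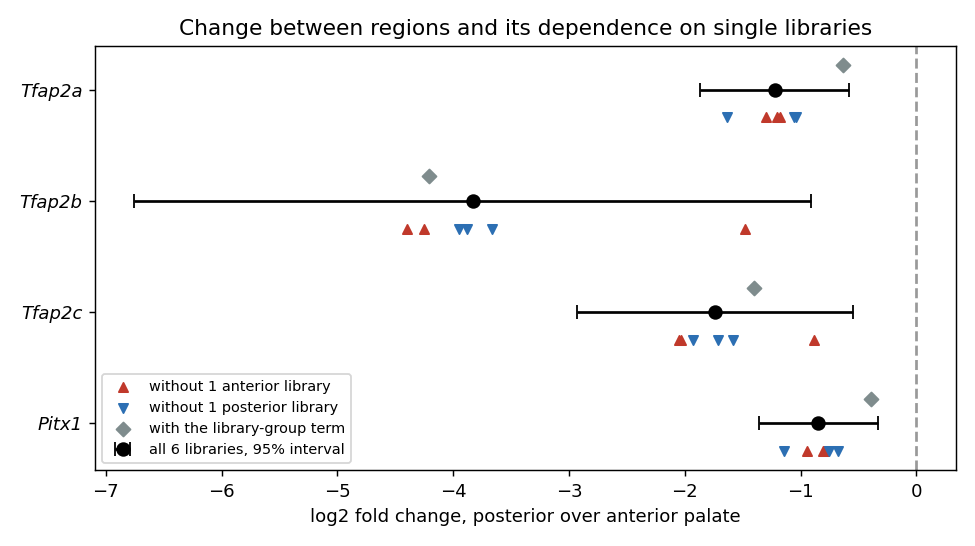
Log2 fold change of posterior over anterior palate (horizontal axis, below 0 means higher in the anterior palate) for the 4 members tested; black points and bars are the estimate from all 6 libraries with its 95% interval, triangles the estimates without 1 library each, and grey diamonds the estimate with a term for posterior replicates 2 and 3. All estimates lie below 0, and the estimates of Tfap2b and Tfap2c that lie nearest to it are those without anterior replicate 3 (-1.48 and -0.89).

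In order of mean level per kb of exon, the genes described here ran in the anterior palate from Pitx1 (29.0 CPM per kb) through Tfap2c (7.38) and Tfap2b (7.08) to Tfap2a (5.26), with Pitx3, Tfap2e and Tfap2d at or near 0. The order of the AP-2 genes among themselves was set by anterior replicate 3: in anterior replicates 1 and 2 Tfap2a was the highest (5.42 and 4.72 CPM per kb), ahead of Tfap2c (3.96 and 4.15) and Tfap2b (0.311 and 2.43). Only Pitx1 and Tfap2c, and Tfap2a and Pitx3, did not overlap as neighbours in the order of the means. In the posterior palate the order was Pitx1 (16.2 CPM per kb), Pitx3 (2.96), Tfap2a (2.25), Tfap2c (2.20), Tfap2b (0.493) and Tfap2e. There Pitx1 stood clear of Pitx3, and Tfap2b stood clear of Tfap2c above it and of Tfap2e below it, while Pitx3, Tfap2a and Tfap2c overlapped as neighbours.

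Markers of other cell types were read in the same libraries, and their part in the members' levels was not tested. Of the 6 glial and neural crest markers, Erbb3, a neuregulin receptor, was called toward the posterior palate (log2 fold change 0.70, adjusted p = 0.0413, edgeR), a call lost with limma-voom, the replicate block, the term for posterior replicates 2 and 3, and without any single library other than posterior replicate 1. The sums were 51.7 to 57.9 CPM in the anterior and 60.8 to 81.8 CPM in the posterior libraries. Melanocyte markers summed to between 3.41 and 7.06 CPM, and neither gene tested (Mitf and Pmel) was called. The defining pigment genes Dct, Tyr and Tyrp1 had at most 3 counts per library. Of the palatal mesenchyme markers, Prrx1 was called toward the anterior palate (log2 fold change -1.34), and Twist1 and Pdgfra toward the posterior palate (0.74 and 1.06), while the list held 1 call without anterior replicate 1 or anterior replicate 2. None of the endothelial, myeloid and neuronal markers, 4 of each, was called; by CPM these lists were led by Cdh5 (99.3 to 180 CPM) and Kdr (72.1 to 152 CPM), by Csf1r (28.0 to 35.8 CPM) and Lyz2 (14.0 to 26.3 CPM), and by Stmn2 (6.58 to 98.8 CPM) and Tubb3 (6.38 to 86.3 CPM). Of the 86 genes on the lists other than the members, 71 were tested and 19 were called, 8 of them toward the anterior palate. The 19 include the 6 skeletal muscle markers, Pitx3 and Ambn, several of which were tested only through the region where they are high, and 13 were called when 10 counts were required in every library, so the count is not read against the share over all genes.

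Annotated genes overlap Tfap2a and Pitx1 on the opposite strand, where strand-specific counting separates reads. Gm28760, a long noncoding RNA within Pitx1 (chr13:55835360-55836095), lies on the same strand as Pitx1, so strand cannot separate the reads they share; it had at most 2 counts per library of its own. Gm47071, which runs antisense across Pitx1 and beyond it (chr13:55826250-56084849), had 82, 84 and 57 counts in the anterior and 18, 18 and 9 counts in the posterior libraries. It was named after its values were seen. Its log2 fold change was -2.40 (SE 0.32, adjusted p = 0.00456, edgeR), larger than that of Pitx1. The antisense gene Gm26688 at Tfap2a had 9, 4 and 9 counts and 2, 3 and 3 counts, too few to be tested.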

How the data were processed

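Total RNA of 6 palate libraries was sequenced. The deposited values are raw counts per gene, made by the authors: the file layout is that of STAR's per-gene counts, with unstranded, forward and reverse columns, while the study's methods and the processing notes in the labels name HISAT2, StringTie, DESeq2 1.30.1 and the mm10 build. The reverse column, 18.95 to 23.1 times the forward total, was used, and rows for unassigned reads were left out of library sizes; unmapped reads were 2.71% to 4.65% and multimapping reads 5.94% to 8.77% of all reads. How the reads were trimmed is not given in the sources used here.

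Symbols came from GENCODE M21 by identifier without version, and positions, exon lengths and overlaps are those of M21. The annotation counted is not given in the sources used here, and identifier versions differ from M21, so levels per kb are approximate. The 15673 genes that reached 10 counts in 3 or more libraries were compared between regions with edgeR 4.0.16 (TMM, quasi-likelihood test, R 4.3.3) and Benjamini-Hochberg adjustment over all of them; the threshold was 0.05. Alternatives used DESeq2 1.42.0, limma-voom (limma 3.58.1), other size factors and filters, unstranded counts, a replicate block, a term for posterior replicates 2 and 3, and each library left out. Single genes were also compared by an exact two-sided permutation test. No replicate pair agreed within sampling noise.

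The members and 16 gene lists were chosen with earlier results of these data known. Named are all members and the paralogs Tfap2d and Pitx3, list genes called or, where none was called, the 2 most abundant, and the 3 nearest profiles of each tested member; other names were chosen after their values were seen. Some genes are not reported here.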

Additional observations from a re-analysis of the deposited data

Results flagged for a closer look

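Reads on the strand opposite to the gene, which the comparisons did not use, were found at Tfap2a and Pitx1 in every library, above the 3 counts that a count of 0 allows. At Tfap2a there were 9, 6 and 8 such reads in the anterior libraries and 4 in each posterior library, or 1.77% to 3.33% of the reads on both strands. At Pitx1 there were 7, 23 and 7 in the anterior and 24, 8 and 6 in the posterior libraries, or 0.640% to 2.96%. Over all genes the share was 4.15% to 5.01%, so neither gene stood above it.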

How the results depend on the processing

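The 4 members tested kept their direction under every alternative that gave a value, and calls depended on the tool and the libraries. The 1169 genes called became 1978 with DESeq2 (637 toward the front and 1341 toward the back) and 2162 without the filter on low counts (646 and 1516). Leaving out 1 library gave 498 to 7119 calls in all, 140 to 3242 toward the anterior and 312 to 3877 toward the posterior palate, against 406 and 763 with all libraries. The highest counts came without posterior replicate 1. The 19 calls on the gene lists became 9 to 33 without 1 library each.

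With DESeq2 and without the filter, log2 fold changes were -3.85 and -3.82 for Tfap2b, -1.75 and -1.74 for Tfap2c, and -0.85 and -0.85 for Pitx1, and all of these passed (adjusted p = 0.0358 and 0.00688, 0.00267 and 0.00467, 0.00521 and 0.00562). Tfap2a with unstranded counts was -1.25 and did not pass (adjusted p = 0.0520). Without 1 library each, the ranges were -1.63 to -1.04 for Tfap2a, -4.40 to -1.48 for Tfap2b, -2.05 to -0.89 for Tfap2c and -1.14 to -0.68 for Pitx1. With limma-voom, Tfap2b was -2.23 (adjusted p = 0.422). Pitx3 kept its call where it was tested; it entered the test only through its 3 posterior libraries and was not tested without any 1 of them or when 10 counts were required in every library. Tfap2e could be fitted only without the filter, from 2 counts in all, and no fold is given. The causes were not tested.

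With the replicate block, 237 genes were called higher in the anterior palate, Pitx1 passed (-0.88, adjusted p = 0.0298), Tfap2a was -1.29 and the other members kept their side of the threshold. Libraries with the same number did not deviate together (correlations of -0.059, 0.020 and 0.034), so the numbers were not taken to pair them. Of 240 counts of calls for single lists under the alternatives, 190 equalled the main count or lay within 1.5 times of it. The other 50 did not, and these include every change from a count of 0. On lists with 0 or 1 calls a change of 1 gene was enough.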

Other observations

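A few other genes were high in single libraries, and they were picked after their values were seen. With at least 100 counts in 1 library and at least 4 times the level of every other library, 12 genes stood out in anterior replicate 3, Tfap2b among them, against 0 in anterior replicate 1, 1 in anterior replicate 2, 3 in posterior replicate 1, 37 in posterior replicate 2 and 0 in posterior replicate 3. The 12 were led by Fgf3, at 35.0 times the next library, Dlx1as, a transcript antisense to the homeobox gene Dlx1, at 34.6 times, Egr3 at 32.7 times and Cyp26c1, a retinoic acid-degrading enzyme, at 23.7 times. Dlx1as had 4, 20 and 1906 counts in the anterior and 26, 66 and 68 counts in the posterior libraries. Gcnt4, Sp6, Zfp385c, Nts, Nptx2, Nptx1 and Egr2 made up the rest with Tfap2b, at 4.90 to 8.64 times the next library.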
